A study of Homo sapiens with 12 samples.

Results

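The genes described here are microRNA genes annotated in the external transcribed spacer of ribosomal RNA precursors: MIR3648 and MIR3687, with 2 annotated copies each, MIR3648-1, MIR3648-2, MIR3687-1 and MIR3687-2. They were chosen for their low values in vesicles of hypoxic cells, so their difference between hypoxia and normoxia vesicles is given below as a description, with no test. Of the 4 genes, 2 have a row in the deposited table of 57773 gene IDs, MIR3648-2 (ENSG00000264462) and MIR3687-2 (ENSG00000264063). MIR3648-1 and MIR3687-1 were not analysed here.

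The libraries come from HEK293, a human embryonic kidney cell line, and from the extracellular vesicles (EVs) it released. Every group carried the 4EC1 vectors, named for EIF4E, YTHDF1, GBP1, CD9 and eGFP, introduced by lipofection for 48 h, and no untransfected group was analysed here. The 4 groups were hypoxia EVs (cells kept 24 h in a hypoxia chamber), normoxia EVs, hypoxia cells and normoxia cells, with 3 libraries each and 12 in all. The labels do not say whether the replicates of a group were cultured separately. A p-value here therefore sets a difference against the spread between these libraries, which may be technical. In limma that spread is drawn in part from other genes, so it can differ from the spread of the gene itself.

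In human cells, RNA polymerase I transcribes each ribosomal DNA repeat into a long precursor that holds the 18S, 5.8S and 28S ribosomal RNAs between spacers. The external spacer ahead of the 18S RNA is cut off in the nucleolus with the small subunit processome. In it, U3 and other small nucleolar RNAs (snoRNAs) pair with the precursor. The spacer is then degraded by exonucleases including the RNA exosome. MIR3648 and MIR3687 are annotated within this spacer, and small RNAs from there have been catalogued as microRNAs. The libraries here are of long RNA, so a read on either gene may come from a spacer or precursor transcript, and mature microRNA and precursor cannot be told apart.

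On GRCh38, GENCODE release 29 places MIR3648-2 on the plus strand at chr21:8986999-8987178 (180 bases) and MIR3687-2 at chr21:8987370-8987430 (61 bases), both with the biotype miRNA. No other gene of that annotation overlaps either of them. The copies MIR3648-1 (chr21:8208473-8208652) and MIR3687-1 (chr21:8208844-8208904) have the same lengths and lie inside the long noncoding RNA gene FP671120.1. In both copies MIR3687 starts 371 bases after MIR3648. The copies MIR3648-1 and MIR3687-1 can be placed on a whole ribosomal unit: MIR3648-1 starts 2485 bases and MIR3687-1 starts 2856 bases after the start of RNA45SN2, the ribosomal precursor gene of RefSeq. The 18S gene RNA18SN2 starts at 3643 bases, which leaves 726 bases between it and MIR3687-1. Ribosomal units are repeated and nearly identical, and the sources used here do not give how reads matching several copies were assigned. Each value below may therefore hold reads of more than 1 copy.

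**Figure D1:**
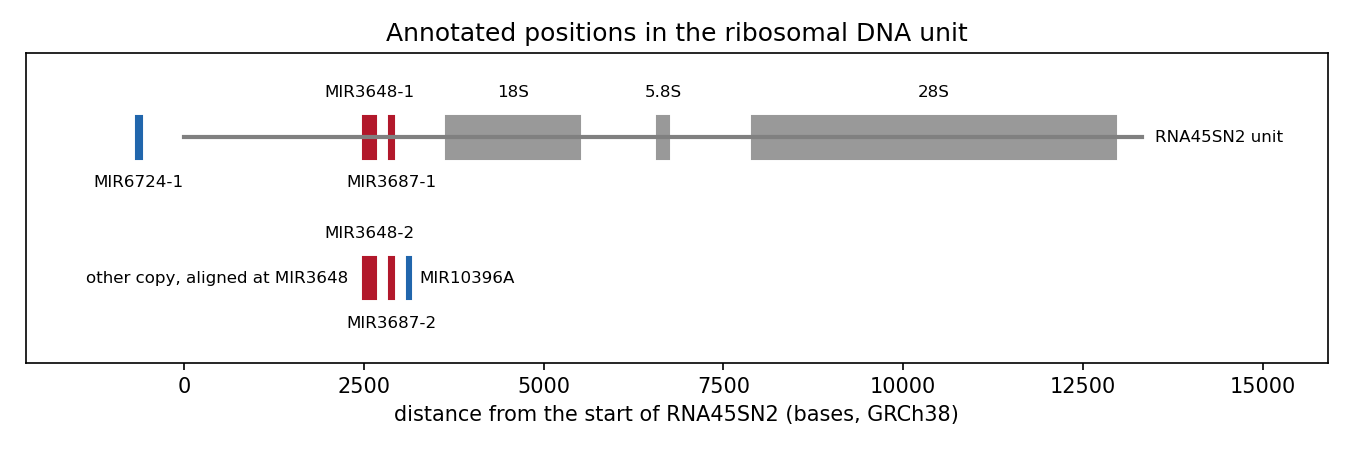
Annotated genes along the ribosomal RNA precursor gene RNA45SN2, in bases from its start. Grey boxes are the ribosomal RNAs, red boxes MIR3648 and MIR3687, and blue boxes neighbouring microRNA genes. The lower row shows the copies that have a row in the table, aligned at MIR3648. MIR3648 and MIR3687 lie 2485 and 2856 bases from the start, before the 18S gene at 3643.

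The mature sequence is shown because it is the annotated product of the gene with the larger difference. RefSeq gives it, on GRCh38.p14, as 21 bases of the plus strand at chr21:8987026-8987046, which are bases 28 to 48 of MIR3648-2. Capitals mark the seed, bases 2 to 8, with which a microRNA pairs with its targets.
hsa-miR-3648: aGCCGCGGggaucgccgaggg
Of its 21 bases, 17 are G or C (81.0%), against a median of 50% over the 2545 mature human entries of the same table. It is the only 1 of those entries with this seed.

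Cell libraries held 18059381 to 23400813 reads and EV libraries 3259453 to 7001767. Genes above 0 numbered 40153 to 41743 in hypoxia EVs, 27767 to 36869 in normoxia EVs and 36393 to 40571 in cells. The part of this difference in the results was not tested. The deposited values are read counts divided by a factor for each library, and a read was worth 1.34 to 2.52 units in hypoxia EVs, 1.80 to 2.38 in normoxia EVs and 0.481 to 0.551 in cells. Of the genes that the vectors are named for, EIF4E, YTHDF1 and CD9 took up to 24.4% of EV reads and up to 7.28% of cell reads. GBP1 was not counted in these shares. Of 5 HEK293 markers, 4 had a row and a mean above 0 in every group, with summed values of 7221 to 7877 in hypoxia EVs, 10298 to 15923 in normoxia EVs, 6854 to 7207 in hypoxia cells and 12576 to 13022 in normoxia cells. All 5 blood markers had a mean above 0 in every group, with summed values of 107 to 136 in hypoxia EVs, 23.8 to 78.2 in normoxia EVs, 9.27 to 17.3 in hypoxia cells and 5.77 to 15.4 in normoxia cells. All 4 plasma and liver markers (ALB, APOB, TF and SERPINA1) likewise, with 463 to 613 in hypoxia EVs, 95.2 to 260 in normoxia EVs, 27.3 to 62.2 in hypoxia cells and 37.0 to 49.6 in normoxia cells. Each blood, plasma and liver marker thus had its highest mean in hypoxia EVs, where the spacer genes were lowest. For ALB the means differed little, at 6.24 in hypoxia EVs and 4.51 in normoxia EVs. The median over all genes was also higher in hypoxia than in normoxia EVs, by a log2 fold change of 0.60. The HEK293 sum was not highest in hypoxia EVs, and it mixed genes of opposite order between EVs and cells, such as NEFM and IRS4. The part of these markers in the results was not tested.

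MIR3648-2 and MIR3687-2 were both highest in normoxia cells, then in hypoxia cells, then in normoxia EVs, and lowest in hypoxia EVs. The values of MIR3648-2 were 2680, 1856 and 1740 in hypoxia EVs, 12964, 16123 and 10357 in normoxia EVs, 12188, 17106 and 18981 in hypoxia cells, and 25188, 19407 and 25472 in normoxia cells. Hypoxia EVs stood apart below the other 9 libraries, while normoxia EVs and hypoxia cells overlapped. Normoxia cells lay above hypoxia cells in every library, by as little as the step between 19407 and 18981. The group means were 2092 ± 512, 13148 ± 2887, 16092 ± 3508 and 23356 ± 3423 in the same order (SD, n = 3 each).

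MIR3687-2 was lower than MIR3648-2 in all 12 libraries. Its values were 655, 518 and 479 in hypoxia EVs, 1710, 2311 and 1560 in normoxia EVs, 3380, 4712 and 4435 in hypoxia cells, and 6039, 4862 and 5776 in normoxia cells. No 2 neighbouring groups overlapped for this gene. The means were 550 ± 92.2, 1861 ± 398, 4176 ± 703 and 5559 ± 618 (SD, n = 3 each). Within groups the genes often moved together: replicate 1 of the hypoxia cells, replicate 2 of the normoxia cells and replicate 3 of both EV groups were the lowest of their group for each gene. Over the 12 libraries their log2 values had a Pearson correlation of 0.960, a description of libraries that share groups and depth.

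**Figure D2:**
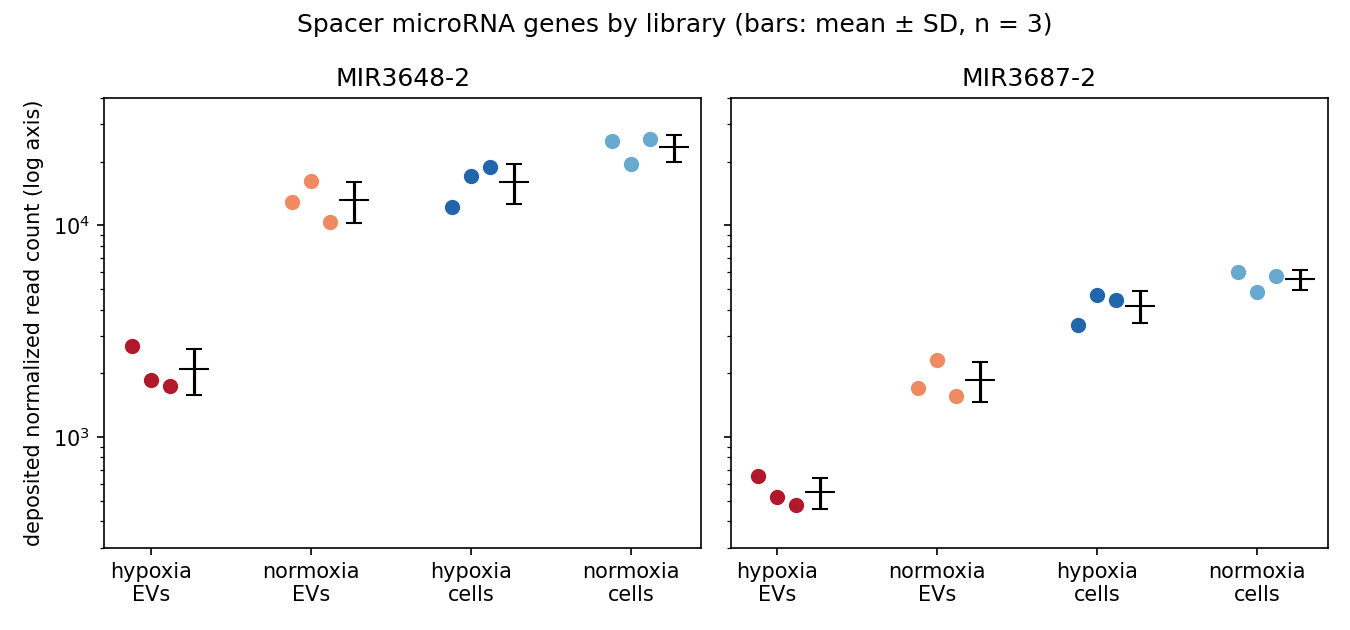
Deposited normalized read counts of MIR3648-2 (left) and MIR3687-2 (right) in each library, on a log axis. Points are libraries and bars are the mean ± SD of 3. Hypoxia EVs (1740 to 2680 for MIR3648-2, 479 to 655 for MIR3687-2) lie below all other libraries for both genes.

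Both genes were well above the counting floor. A count of 0 allows up to 3 reads, and MIR3648-2 had 690 to 2006 reads in hypoxia EVs, 5299 to 8949 in normoxia EVs, 22535 to 36190 in hypoxia cells and 35214 to 52940 in normoxia cells. MIR3687-2 had 190 to 490, 719 to 1283, 6249 to 9152 and 8822 to 12004 reads in the same groups. Such floors cover counting error only. By value MIR3648-2 ranked 228 to 358 among all rows in hypoxia EVs, 39 to 65 in normoxia EVs, 19 to 41 in hypoxia cells and 18 to 23 in normoxia cells. As a share of all reads it took 0.0253%, 0.107%, 0.161% and 0.215% on average in these groups.

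In the EV comparison, which chose the genes, MIR3648-2 had a log2 fold change of -2.65 (SE 0.24) in hypoxia over normoxia EVs and MIR3687-2 one of -1.75 (SE 0.22), on the log2(value + 1) scale. The normoxia mean was 6.29 times the hypoxia mean for MIR3648-2 and 3.38 times for MIR3687-2. For comparison, 12.3% of the 27904 genes tested in EVs passed the limma threshold (adjusted p under 0.05), 6.62% as lower and 5.68% as higher, and the median over all of them was a log2 fold change of 0.60. Of these genes, 15 had a lower fold change than MIR3648-2 and 110 a lower one than MIR3687-2. In bulk libraries fewer vesicles that carry an RNA and less RNA in each of them cannot be told apart.

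The size of the EV difference depended on the scaling. With all libraries set to equal totals the log2 fold changes were -2.09 for MIR3648-2 and -1.18 for MIR3687-2, while the median over all genes moved to 1.21. A scaling moves a gene and the median together, so a difference from the median hardly depends on it, but it does depend on which genes enter. With the deposited scaling that difference was -3.25 for MIR3648-2 and -2.34 for MIR3687-2, with genes averaging 10 or more. With genes averaging 50 or more the median was -0.15, and the differences were -2.51 and -1.60. As CPM, counts scaled to library depth, MIR3648-2 averaged 253 ± 64.1 in hypoxia EVs and 1067 ± 188 in normoxia EVs, a ratio of normoxia to hypoxia of 4.21. MIR3687-2 averaged 66.7 ± 11.6 and 152 ± 31.2, a ratio of 2.28 (SD, n = 3 each).

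The cells were not used to choose the genes, and whether the same genes differed there with hypoxia was tested over all genes. MIR3648-2 had a log2 fold change of -0.55 (SE 0.08, 95% interval -0.70 to -0.40, limma adjusted p = 1.9e-08) in hypoxia over normoxia cells, and MIR3687-2 one of -0.42 (SE 0.07, adjusted p = 1.02e-06). Both passed the threshold, as did 30.4% of the 17260 genes tested in cells, 22.4% as lower and 8.01% as higher, so a lower call was common. The normoxia cell mean was 1.45 times the hypoxia mean for MIR3648-2 and 1.33 times for MIR3687-2. In this comparison 5.71% of all genes had a lower fold change than MIR3648-2 and 12.3% a lower one than MIR3687-2.

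These calls in cells did not hold under every fit. The residual SD of MIR3648-2 between replicates was 0.284 on the log2 scale, and that of MIR3687-2 was 0.215. The limma test used 0.0922 and 0.0835 instead, after drawing each SD towards that of genes of like level. With a robust version of limma, chosen after seeing the data, the adjusted p was 0.155 for MIR3648-2 and 0.153 for MIR3687-2. DESeq2 on whole reads gave adjusted p = 0.113 and 0.141, and limma over all 12 libraries 0.412 and 0.478. The edgeR quasi-likelihood test gave adjusted p = 1.62e-05 and 0.000301. An exact two-sided permutation test gave p = 0.1 for each gene, the smallest that 3 against 3 allows.

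With both conditions averaged, all 6 EV libraries were set against all 6 cell libraries, an average that includes the hypoxia EVs on which the choice rested, so the values are a description with no test. The log2 fold change of EVs over cells was -1.89 (SE 0.15) for MIR3648-2 and -2.26 (SE 0.12) for MIR3687-2. The EV and cell libraries overlapped for MIR3648-2 and did not for MIR3687-2. Over all 24171 genes of this comparison, 74.9% passed the limma threshold, 31.8% as lower and 43.1% as higher. EV RNA was isolated with an exoRNeasy kit and cell RNA with TRIzol, so the source of the RNA and the extraction cannot be told apart.

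Split by condition, the gap between EVs and cells was wider in hypoxia for both genes. In hypoxia the log2 fold change of EVs over cells was -2.94 for MIR3648-2 and -2.92 for MIR3687-2, almost the same for both. In normoxia it was -0.84 for MIR3648-2 and -1.59 for MIR3687-2. The hypoxia response of EVs less that of cells was -2.10 and -1.33, which follows from the contrast that chose the genes and was not tested for them. Over all 24171 genes, 2.31% passed a limma test of that difference, 1.87% as lower and 0.443% as higher.

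The balance between the genes set the normoxia EVs apart. Per base of gene length, the ratio of MIR3687-2 to MIR3648-2 was 0.721, 0.823 and 0.813 in hypoxia EVs, 0.389, 0.423 and 0.444 in normoxia EVs, 0.818, 0.813 and 0.689 in hypoxia cells, and 0.708, 0.739 and 0.669 in normoxia cells. The highest normoxia EV library, at 0.444, lay below the lowest of the other 9, at 0.669. The means were 0.785 ± 0.0562 in hypoxia EVs and 0.419 ± 0.0278 in normoxia EVs, against 0.774 ± 0.0728 in hypoxia cells and 0.705 ± 0.0351 in normoxia cells (SD, n = 3 each). The scaling of a library cancels in this ratio, and no test is given, since both genes were chosen on their EV values. It follows that MIR3648-2, relative to MIR3687-2, was higher in normoxia EVs than in the other 3 groups.

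**Figure D3:**
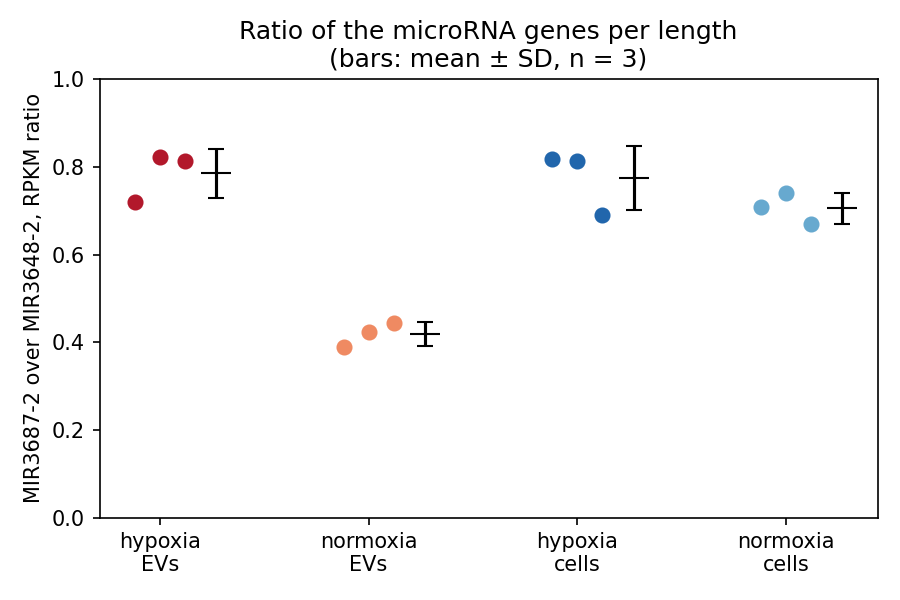
Ratio of MIR3687-2 to MIR3648-2 in RPKM, reads per kilobase scaled to library depth, in each library. Points are libraries and bars are the mean ± SD of 3. The normoxia EVs lie at 0.389 to 0.444, and the other 9 libraries at 0.669 to 0.823.

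Levels of genes of different length are compared in RPKM, reads per kilobase scaled to library depth, with GENCODE 29 lengths. In RPKM MIR3648-2 averaged 1408 in hypoxia EVs, 5928 in normoxia EVs, 8972 in hypoxia cells and 11950 in normoxia cells. MIR3687-2 averaged 1093, 2490, 6875 and 8401 RPKM in the same order. For genes this short, an RPKM also depends on how a longer read fragment was assigned to them, which the sources used here do not give.

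Among 1178 genes of the biotype miRNA, these were the 2 highest in the table, with means of 13672 and 3036 over the 12 libraries. The next were MIR3609, with 77.6, and MIR4449, with 48.3. Of the miRNA genes, 252 were at 0 in all 12 libraries and 13 had a mean of at least 10. MIR3648-2 and MIR3687-2 together took 51.0% ± 8.59 of the reads on miRNA genes in hypoxia EVs, 91.5% ± 4.14 in normoxia EVs, 95.1% ± 1.12 in hypoxia cells and 96.8% ± 0.782 in normoxia cells (SD, n = 3 each).

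Other miRNA genes, 1176 in all, mostly fell below the filter of a mean of 10. In cells 8 could be tested with limma and none passed at adjusted p under 0.05, nor in edgeR or DESeq2, and the smallest unadjusted limma p was 0.257, for MIR4265. In EVs 23 could be tested, of which 2 passed as higher and 1 as lower in hypoxia, or 13.0% against 12.3% of all genes. MIR4449 was lower, at 42.6 ± 10.5 in hypoxia EVs against 133.7 ± 50.01 in normoxia EVs (adjusted p = 0.0405). The 2 higher ones reached the filter only through the hypoxia EVs, so their calls are no evidence of a difference. MIR218-2 averaged 65.7 ± 17.9 in hypoxia EVs and 6.61 ± 11.4 in normoxia EVs, and MIR455 averaged 23.1 ± 14.2 in hypoxia EVs and was at 0 in all 3 normoxia EV libraries. With edgeR or DESeq2 the lower count was 2, and with equal totals it was 0. Leaving out single EV libraries gave 0 to 9 higher calls and 0 to 2 lower ones. Between EVs and cells 11 were tested, with 6 higher and 2 lower in EVs, or 72.7% against 74.9% of all genes. The higher ones include genes that reached the filter only through their EV values, and such calls are no evidence of a difference. MIR378F, for example, averaged 42.1 in hypoxia EVs and 16.2 in normoxia EVs, but 1.23 in hypoxia cells and 0.335 in normoxia cells. MIR3609 was lower in EVs, with a log2 fold change of -3.21. MIR4449 averaged 6.49 in hypoxia cells and 10.3 in normoxia cells, near or below the filter.

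**Figure D4:**
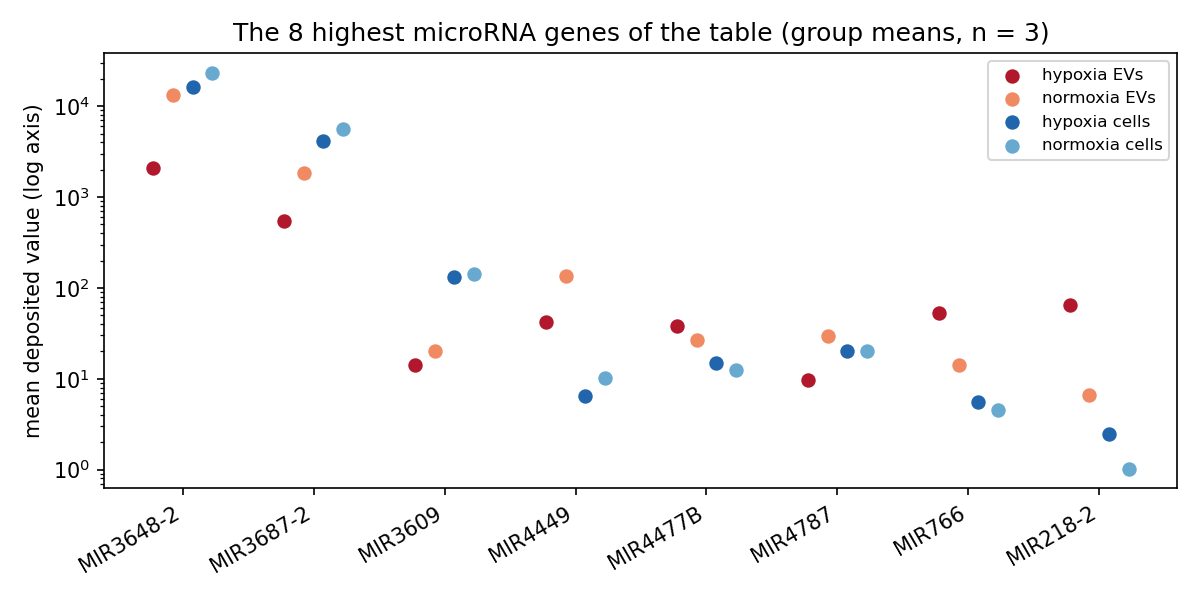
Mean deposited value of the 8 miRNA genes with the highest mean over the 12 libraries, by group, on a log axis. MIR3648-2 and MIR3687-2 average 13672 and 3036 over all libraries, and the next gene, MIR3609, 77.6.

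The mean log2 profile of MIR3648-2 and MIR3687-2 over the 12 libraries was compared with 10750 genes with a mean of at least 100. No other listed ribosomal DNA gene reached that mean, so none could appear here. The 5 genes most alike were all protein-coding. They were MYL12B, a myosin regulatory light chain (Pearson r = 0.990), SNW1, a splicing factor (0.990), AAMP (0.988), PSMD8, a proteasome subunit (0.986), and OAZ1, ornithine decarboxylase antizyme (0.984). MYL12B averaged 375 in hypoxia EVs, 716 in normoxia EVs, 878 in hypoxia cells and 1039 in normoxia cells, the same order of groups over a narrower range. OAZ1 averaged 582, 1207, 1533 and 1885 in these groups. Likeness here is of shape over 4 groups and not of size.

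Genes of the pathway that makes and removes the spacer were taken from lists by role. Of 15 snoRNAs of precursor cleavage 12 had a row, and 5 passed the filter in EVs. All 5 were lower in hypoxia EVs by limma, against 6.62% of all genes, with a median log2 fold change of -2.21 against 0.60 over all genes. SNORD3B-1, a copy of the U3 snoRNA, averaged 98.9 ± 20.7 in hypoxia EVs and 630 ± 292 in normoxia EVs (log2 fold change -2.59, SE 0.32, adjusted p = 0.000129). SNORD3C, another U3 copy, averaged 606 ± 144 in hypoxia EVs and lay between 1823 and 5633 in normoxia EVs (adjusted p = 0.000635). SNORA73B, an H/ACA snoRNA of the U17 family, averaged 757 ± 180 and 4034 ± 2836 (adjusted p = 0.000788). Of these 5 snoRNAs only SNORA73B is not a U3 copy: the others are SNORD3A, SNORD3B-1, SNORD3B-2 and SNORD3C. U3 copies are nearly identical, so their separate values are uncertain and the 5 calls are not independent. Without normoxia EV replicate 2 the count was 2, and with equal totals it was 4.

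In cells 1 of 7 snoRNAs tested was lower in hypoxia and none higher, a share of 14.3%, while 22.4% of all genes were lower. The count was 3 without hypoxia cell replicate 3 and 2 without normoxia cell replicate 1. The snoRNA called was SNORD3B-2, a U3 copy, at 77.4 ± 40.1 in hypoxia cells and 139 ± 20.2 in normoxia cells (log2 fold change -0.94, limma adjusted p = 0.000185). SNORD3C averaged 336 ± 108 in hypoxia cells and 405 ± 66.7 in normoxia cells (adjusted p = 0.0531). Between EVs and cells 3 of 7 were higher and 3 lower in EVs, where 43.1% of all genes were higher and 31.8% lower. The 3 higher ones were the U3 copies SNORD3A, SNORD3B-2 and SNORD3C. SNORD3C was higher in EVs by a log2 fold change of 1.80 and SNORA73B lower, with -1.31.

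RNA polymerase I genes were lower in hypoxia cells in 17 of 21 cases and higher in none, against 22.4% of all genes lower and 8.01% higher, with a median log2 fold change of -0.39 against -0.07 over all genes. The list includes POLR2E, POLR2F, POLR2H, POLR2K, POLR2L and TBP, which also serve other RNA polymerases. All of these but POLR2H are among the 17. The counts of this list are therefore not specific to RNA polymerase I. POLR1A, the largest subunit, averaged 1698 ± 54.7 in hypoxia cells and 2729 ± 123 in normoxia cells (log2 fold change -0.68, SE 0.06, limma adjusted p = 8.73e-15). UBTF, which binds ribosomal DNA and recruits the polymerase, averaged 1724 ± 70.1 and 2635 ± 141 (adjusted p = 9.2e-13). In hypoxia EVs 9 of 21 were lower and none higher, against 6.62% and 5.68% of all genes, among them TTF1, the termination factor, at 177 ± 27.6 in hypoxia EVs and 467 ± 11.1 in normoxia EVs (adjusted p = 0.0112). RRN3, the initiation factor, was also lower, at 214 ± 43.2 against 512 ± 72.5 (adjusted p = 0.0144). Between EVs and cells 16 were lower in EVs and 3 higher, against 31.8% and 43.1% of all genes, UBTF being one of those that were higher (log2 fold change 1.56).

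The small subunit processome, which frees the 18S precursor from the spacer, was lower in hypoxia cells for 36 of its 38 tested genes, against 22.4% of all genes, with a median of -0.49 and none higher. HEATR1 averaged 2747 ± 7.63 in hypoxia cells and 4752 ± 102 in normoxia cells (log2 fold change -0.79, SE 0.05, limma adjusted p = 2.25e-19). UTP20 averaged 1282 ± 157 and 2189 ± 70.0 (adjusted p = 5.48e-15). In hypoxia EVs 14 of 38 were lower, against 6.62% of all genes, and none higher, with WDR43 at 1085 ± 113 in hypoxia EVs and 2334 ± 549 in normoxia EVs (adjusted p = 0.0133). Between EVs and cells 26 were lower and 6 higher in EVs, against 31.8% and 43.1% of all genes, and WDR75 had a log2 fold change of -3.02.

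Of 18 genes of spacer trimming and decay, 12 were lower and 1 higher in hypoxia cells, and 7 were lower and none higher in hypoxia EVs. Of all genes, 22.4% were lower in hypoxia cells and 6.62% in hypoxia EVs. EXOSC4, a subunit of the RNA exosome, averaged 145 ± 22.5 in hypoxia cells and 251 ± 24.7 in normoxia cells (log2 fold change -0.80, limma adjusted p = 2.53e-06). MTREX, the exosome's helicase, averaged 1403 ± 34.6 and 1833 ± 114 in the same groups (adjusted p = 1.95e-06). TENT4B, a poly(A) polymerase that marks RNA for decay, was lower in hypoxia EVs, at 450 ± 70.6 against 912 ± 82.7 in normoxia EVs (adjusted p = 0.0155). In EVs against cells 14 of 18 were lower, where 31.8% of all genes were, with MTREX at a log2 fold change of -2.44.

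Of 10 genes of microRNA processing, 5 were lower in hypoxia cells, 2 in hypoxia EVs and all 10 in EVs against cells, with none higher. Of all genes, 22.4%, 6.62% and 31.8% were lower in these comparisons. DICER1, which cuts precursors into mature microRNAs, averaged 1995 ± 99.7 in hypoxia cells and 2851 ± 107 in normoxia cells (log2 fold change -0.52, limma adjusted p = 1.38e-10). In EVs it averaged 427 ± 104 in hypoxia and 739 ± 186 in normoxia (adjusted p = 0.0431). DROSHA, which releases the hairpin in the nucleus, averaged 583 ± 27.2 and 1022 ± 200 in the same EV groups (adjusted p = 0.0305).

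The counts for the protein-coding lists rest on the scaling and on single EV libraries. With equal totals the lower calls in hypoxia EVs were 1 for RNA polymerase I, 1 for the processome and 0 for decay and for microRNA processing, and without normoxia EV replicate 2, or without hypoxia EV replicate 3, all 4 were 0. Without hypoxia EV replicate 2 they were 1, 0, 0 and 0, without hypoxia EV replicate 1 they were 4, 2, 1 and 0, without normoxia EV replicate 1 they were 2, 2, 1 and 0, and without normoxia EV replicate 3 they were 12, 22, 10 and 5. In cells the polymerase count was 10 with equal totals and the processome count 32, and in the fit of all 12 libraries both were 1. In that fit, limma called 25 genes of all as lower in hypoxia cells. The shares and medians of all genes beside these lists rest on the filter of 10. With genes averaging 50 or more, the median over all genes was -0.15 in hypoxia over normoxia EVs, -0.12 in cells and -0.41 in EVs over cells. The processome medians were then -0.71, -0.49 and -0.74, each closer to that of all genes than with the filter of 10.

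**Figure D5:**
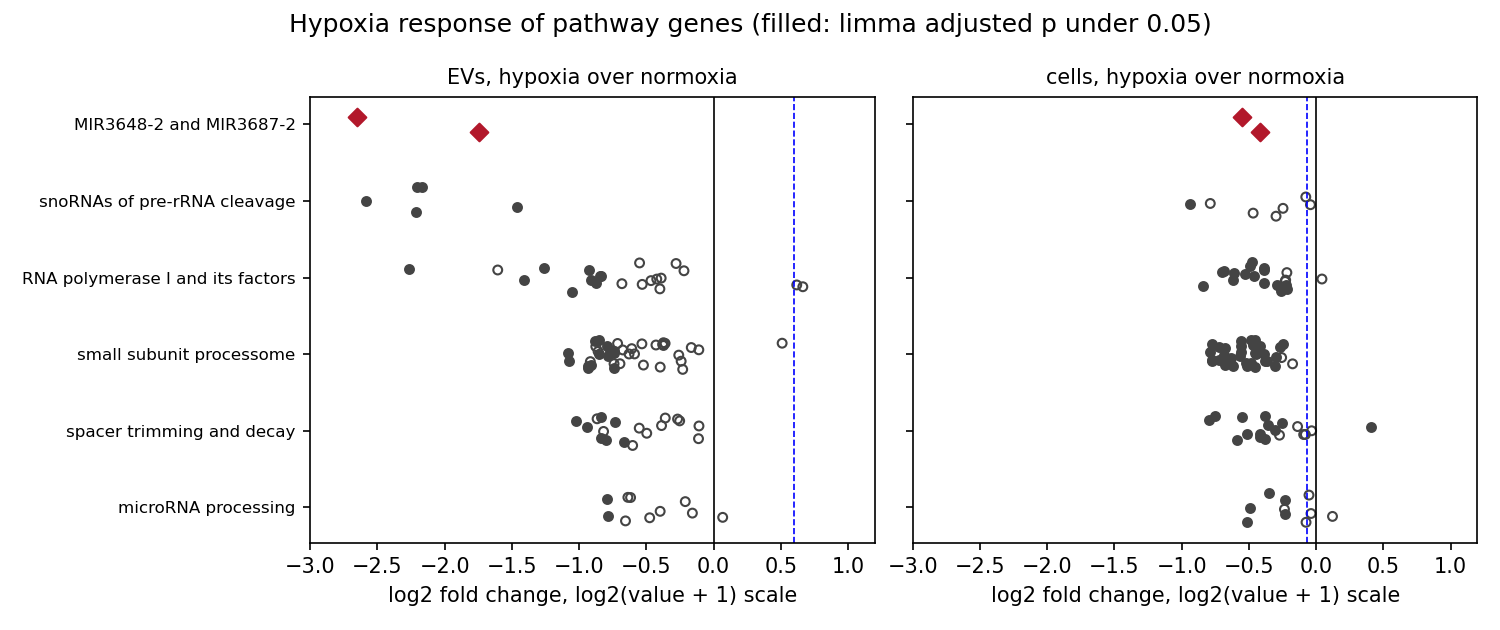
Log2 fold changes of hypoxia over normoxia in EVs (left) and cells (right) on the log2(value + 1) scale. Red diamonds are MIR3648-2 (upper) and MIR3687-2 (lower), circles are genes of each list with vertical scatter for legibility, filled where limma's adjusted p was under 0.05, and the dashed line is the median of all genes (0.60 in EVs, -0.07 in cells). In EVs the snoRNAs, all but SNORA73B being U3 copies, lie nearest to the spacer genes, with a median of -2.21.

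Of 11 ribosomal RNA and other ribosomal DNA genes listed, 5 had a row, all of them 5.8S pseudogenes, and 2 could be tested in EVs, none of which passed in limma, adjusted or unadjusted. Between EVs and cells 1 could be tested, and it was called higher in EVs, having reached the filter only through its EV values. The precursor's own 18S, 5.8S and 28S genes and the neighbouring microRNA genes of the unit were not analysed here. A comparison of the spacer with the rest of its transcript was therefore not made.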

How the data were processed

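The deposited table holds a signal per gene and library. The values show that the authors scaled whole read counts by a factor for each library. Builds hg38 and GRCh38 and the tools Bowtie (0.12.2) and DESeq2 (1.30.1) are named in the submitters' processing notes. The sources used here do not give the counter, annotation, strand setting or treatment of reads with several matches. Of 57773 gene IDs, 52338 had a GENCODE 29 name. Dividing by the factor gave whole reads for 100% of values (tolerance 0.01).

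Values were tested as log2(value + 1) with limma-trend, in R 4.3.3 with limma 3.58.1. Genes averaging at least 10 over the fitted libraries entered, and p was adjusted by Benjamini-Hochberg over all of them (threshold 0.05). The 6 cell libraries, the 6 EV libraries and all 12 were fitted separately. EVs against cells had been planned as a test for the spacer genes and is given without one, since the hypoxia EVs chose them. The scale understates changes of low genes. On the whole reads edgeR 4.0.16 called 1891 genes higher and 2606 lower in hypoxia cells, 1026 and 2477 in hypoxia EVs, and 10143 and 8284 in EVs against cells. DESeq2 1.42.0 was also run. The fits were tested on simulated data.

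The genes, the 7 lists, the markers and the rules were chosen with earlier results of these data known. Named genes are the spacer genes, up to 3 with the smallest p per list and comparison, and the 5 with the most similar profile. Not every gene so found is described. Alternatives were pseudocounts of 0.5 and 5, equal totals, TMM factors, a minimum mean of 50 or none, a replicate block, all 12 libraries in the fit, and each library left out. Equal totals without EIF4E, YTHDF1 and CD9, and robust limma, were added after seeing the data.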

Additional observations from a re-analysis of the deposited data

Results flagged for a closer look

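In the lists around the spacer, 6 genes passed a limma interaction test over all 12 libraries for a difference between the hypoxia response of EVs and that of cells. They are 6 of the 37 named genes that could be tested, of which 31 did not pass and 6 had a value above 0. All 6 were named for their small p in hypoxia against normoxia EVs, so a larger EV response was favoured by the choice. Over whole lists, 3 of 7 snoRNAs, 2 of 21 RNA polymerase I genes, 0 of 38 processome genes, 1 of 18 decay genes and 0 of 10 microRNA processing genes passed as lower, against 1.87% of all genes. The log2 fold change in EVs less that in cells was -1.87 for SNORD3C (adjusted p = 0.0362) and -2.34 for SNORD3B-1 (adjusted p = 0.00574). Both are U3 copies with uncertain separate levels, so their calls are not independent. The same difference was -2.17 for SNORA73B (adjusted p = 0.0192) and -1.12 for TTF1 (adjusted p = 0.0227). For RRN3 it was -1.04 (adjusted p = 0.0329) and for TENT4B -0.94 (adjusted p = 0.0366). How these 6 differences depend on the scaling or on single libraries was not examined.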

How the results depend on the processing

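Differences that involve EVs took part in the choice of MIR3648-2 and MIR3687-2, so their direction is no sign of stability. Left-out libraries gave -1.99 to -1.81 and -2.34 to -2.20 for EVs against cells. The calls of hypoxia against normoxia cells kept their direction but missed the threshold with DESeq2 (-0.45 and -0.33), in the fit of all 12 libraries and with robust limma (both -0.55 and -0.42), and left-out libraries gave -0.68 to -0.36 and -0.52 to -0.28, each still past it. In EVs, hypoxia over normoxia moved with equal totals to -2.09 for MIR3648-2 and -1.18 for MIR3687-2. With EIF4E, YTHDF1 and CD9, but not GBP1, left out of the totals it moved to -2.12 and -1.21. Left-out libraries gave -2.85 to -2.50 and -1.88 to -1.58. EVs over cells in hypoxia moved with TMM to -3.38 and -3.36, and without EIF4E, YTHDF1 and CD9 in the totals to -2.43 and -2.41. With equal totals it moved to -2.65 for MIR3687-2. In normoxia TMM gave -1.84 for MIR3687-2. The EV less cell response was -1.66 and -0.88 with equal totals, and -1.71 and -0.93 without EIF4E, YTHDF1 and CD9 in the totals. The replicate block left the fold changes in cells at -0.55 and -0.42 (adjusted p = 5.13e-14 and 9.61e-09). Same-numbered libraries correlated at -0.142 to 0.0897 in their deviations, so numbers were not taken as pairs. The block raised the EV calls over all genes to 2776 higher and 2633 lower, against 1586 and 1846. Leaving out single EV libraries gave 0 to 6144 higher and 7 to 3934 lower calls. Summing the copies was not run, since each gene had 1 row.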
